A study of Mus musculus with 2 samples.

Results

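Described here are 8 mouse genes of myoblast adhesion and fusion (Mymk, Mymx, Tmem182, Jam3, Cdh15, Cdh2, Ncam1 and Dock1), picked by symbol from the 26100 genes listed in both count matrices. All 8 were found. Skeletal muscle fibres form when single myoblasts stop dividing, adhere to each other and merge their membranes. Cadherins, immunoglobulin-type adhesion proteins and integrins bring the cells together, Rac signalling reshapes the actin beneath the contact, and the muscle-specific membrane proteins Myomaker (Mymk) and Myomerger (Mymx) complete the merger. Myogenin (Myog) is the transcription factor that marks committed myocytes, and muscle creatine kinase (Ckm) is an enzyme of later differentiation, so both were used to order the cells.

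RNA was counted in single cells of 2 cultures by the 10x Genomics 3′ droplet assay. The unit of counting is the unique molecular identifier (UMI), a random tag given to each captured RNA molecule. The MEF culture was mouse embryonic fibroblasts in MEF media. The iMPC culture was induced myogenic progenitor cells, derived from embryonic fibroblasts by MyoD together with an agent mix abbreviated F/R/C, and kept in medium that contains F/R/C. Both cultures had the genotype Tg:Pax7-nGFP/C57BL6;DBA2, which includes a Pax7 reporter. The series describes the iMPC culture as one stable clone. The labels repeat the iMPC treatment protocol for the MEF culture, whose own treatment label names MEF media, and that label was followed. The study's purpose, as its design text states, was to find the cell types of the iMPC culture and the paths of differentiation in it.

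Each culture was 1 library, so there was no replicate check and no test. Intervals are exact 95% intervals (Poisson for summed counts, conditional for ratios, Clopper-Pearson for shares) and cover counting error only. After filtering, 6043 MEF cells (median 18929 UMIs per cell) and 9349 iMPC cells (median 20846) remained, and 16 cell barcodes occurred in both libraries. The iMPC cells were split by Myog into 3600 cells with 0 UMIs, 2627 with 1 to 4, 883 with 5 to 19 and 2239 with at least 20, with median depths of 17654.5, 19599, 25184 and 30921 UMIs. Separately, the 1037 cells with at least 5 Ckm UMIs (median depth 42148) were set against the other 8312 (19673.5). Levels are given as CPM, the UMIs of a gene scaled by all UMIs of its group. Shares of cells with a UMI are given after every cell was thinned to 5000 UMIs, which left out 284 shallower MEF cells and no iMPC cell. In this text "higher" or "lower" in a count of genes means at least 2-fold, provided that the group with more reached 10 CPM.

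The labelled cell types were checked against marker genes. All 6 fibroblast markers reached 10 CPM in MEF, where their summed level was 4094 CPM, against 1556 CPM in Myog 0 iMPC cells and 142 CPM in cells with at least 20 Myog UMIs. Of 7 myogenic stage markers, 7 reached 10 CPM in iMPC and 1 did so in MEF, where Myf5 and Ckm had 0 UMIs. Smooth muscle markers summed to 9883 CPM in MEF and 716 CPM in iMPC, and neuron markers to 25.9 and 59.5 CPM. The glial, endothelial and immune lists stayed under 5 CPM in both cultures, while the epithelial list summed to 14.6 CPM in MEF and 0.378 CPM in iMPC. Only 1 of 5 neuron markers reached 10 CPM in each culture, and 1 of 4 epithelial markers did so in MEF and 0 in iMPC. Of 4 smooth muscle markers, 4 reached it in MEF and 2 in iMPC. Cycling markers summed to 383 CPM in Myog 0 cells and 129 CPM in cells with at least 20 Myog UMIs. The part of these other markers and of cycling in the differences by Myog was not tested. Myod1, the gene introduced into the iMPC culture, stood at 0.0762 CPM in MEF and 159 CPM in iMPC, and its counts do not separate the introduced copy from the cells' own.

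The sequence just upstream of Tmem182 is shown because this gene had a steep difference across the Myog and Ckm bins, and because a RefSeq promoter table holds it. Of the 8 genes, 3 were matched in that table (Cdh15, Tmem182 and Dock1). The capitals mark CAGCTG, an E-box of the kind that MyoD family factors bind, which reads the same on both strands. The build is GRCm38.p6 and the strand is plus, chr1:40805351-40805572.
Tmem182 upstream: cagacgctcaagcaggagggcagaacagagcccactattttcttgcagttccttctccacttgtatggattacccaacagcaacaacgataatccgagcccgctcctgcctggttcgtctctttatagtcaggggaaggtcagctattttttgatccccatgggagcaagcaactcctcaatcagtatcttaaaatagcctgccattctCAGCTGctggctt
The 222 bases hold the motif 1 time, at 41 bases upstream of the table's start. The same window holds it in 3764 of 32851 promoters of the table (11.5%), so the match is a description of these letters only.

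By GENCODE M21 on GRCm38, Mymk (ENSMUSG00000009214) lies on chromosome 2 at 27061636 to 27072179 and Mymx (ENSMUSG00000079471) on chromosome 17 at 45600971 to 45602102, both on the minus strand. Tmem182 (ENSMUSG00000079588) spans 40805601 to 40856887 on chromosome 1, plus strand. Jam3 (ENSMUSG00000031990, 27097384 to 27155421) and Ncam1 (ENSMUSG00000039542, 49502136 to 49798925) are both on the minus strand of chromosome 9. Cdh15 (ENSMUSG00000031962) spans 122847966 to 122867397 on the plus strand of chromosome 8, Cdh2 (ENSMUSG00000024304) 16588877 to 16809246 on the minus strand of chromosome 18, and Dock1 (ENSMUSG00000058325) 134670654 to 135173639 on the plus strand of chromosome 7. No other gene of the matrices overlaps Mymk, Mymx, Cdh2, Jam3, Tmem182 or Ncam1. Cdh15 overlaps Gm20388, which had 0 UMIs in both cultures. Dock1 overlaps Gm45532 on its own strand, which stood at 1.54 CPM in MEF and 0.645 CPM in iMPC.

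The first comparison set the whole iMPC culture against the MEF culture, a separate library of embryonic fibroblasts. Mymk, Mymx, Tmem182, Cdh15 and Jam3 were higher in iMPC, which is 5 of 8 genes, and 0 of 8 were lower. Of the 8605 genes with at least 10 CPM in either culture, 14.8% were higher and 21.5% lower. Mymk stood at 0.0169 CPM in MEF (0.00205 to 0.0612), from 2 UMIs, and at 224 CPM in iMPC (222 to 226). Mymx also had 2 UMIs in MEF and stood at 118 CPM in iMPC (116 to 119). The log2 ratios were 13.69 for Mymk (11.84 to 16.74) and 12.76 for Mymx (10.91 to 15.81), and the wide intervals come from the 2 MEF molecules. Tmem182, a muscle membrane protein known as an inhibitor of fusion, had 6 UMIs in MEF (0.0508 CPM) and 27.9 CPM in iMPC, a log2 ratio of 9.10 (7.98 to 10.55). Both fusion genes and Tmem182 were thus near the detection limit of the fibroblast library.

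The adhesion genes split between those scarce in fibroblasts and those shared by both cultures. Cdh15 encodes M-cadherin, the cadherin of satellite cells and myoblasts, and stood at 0.737 CPM in MEF (0.590 to 0.909) and 160 CPM in iMPC (158 to 162). Its log2 ratio was 7.76 (7.46 to 8.08). Jam3, a junctional adhesion molecule of the immunoglobulin family, stood at 24.6 CPM in MEF and 67.0 CPM in iMPC, a log2 ratio of 1.44 (1.39 to 1.5). Cdh2, which encodes N-cadherin, stood at 60.3 CPM in MEF and 44.2 CPM in iMPC. Ncam1, the neural cell adhesion molecule, stood at 301 CPM in MEF and 237 CPM in iMPC. Dock1, an exchange factor that activates Rac, stood at 36.8 CPM in MEF and 21.1 CPM in iMPC. The log2 ratios of Cdh2 (-0.45), Ncam1 (-0.34) and Dock1 (-0.80) stayed within 2-fold. A median-ratio scaling, which sets the typical gene's ratio to 1 instead of using totals, would add 0.18 to each of these log2 ratios, 0.40 to those between the outer Myog bins and 0.41 to those by Ckm.

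**Figure D1:**
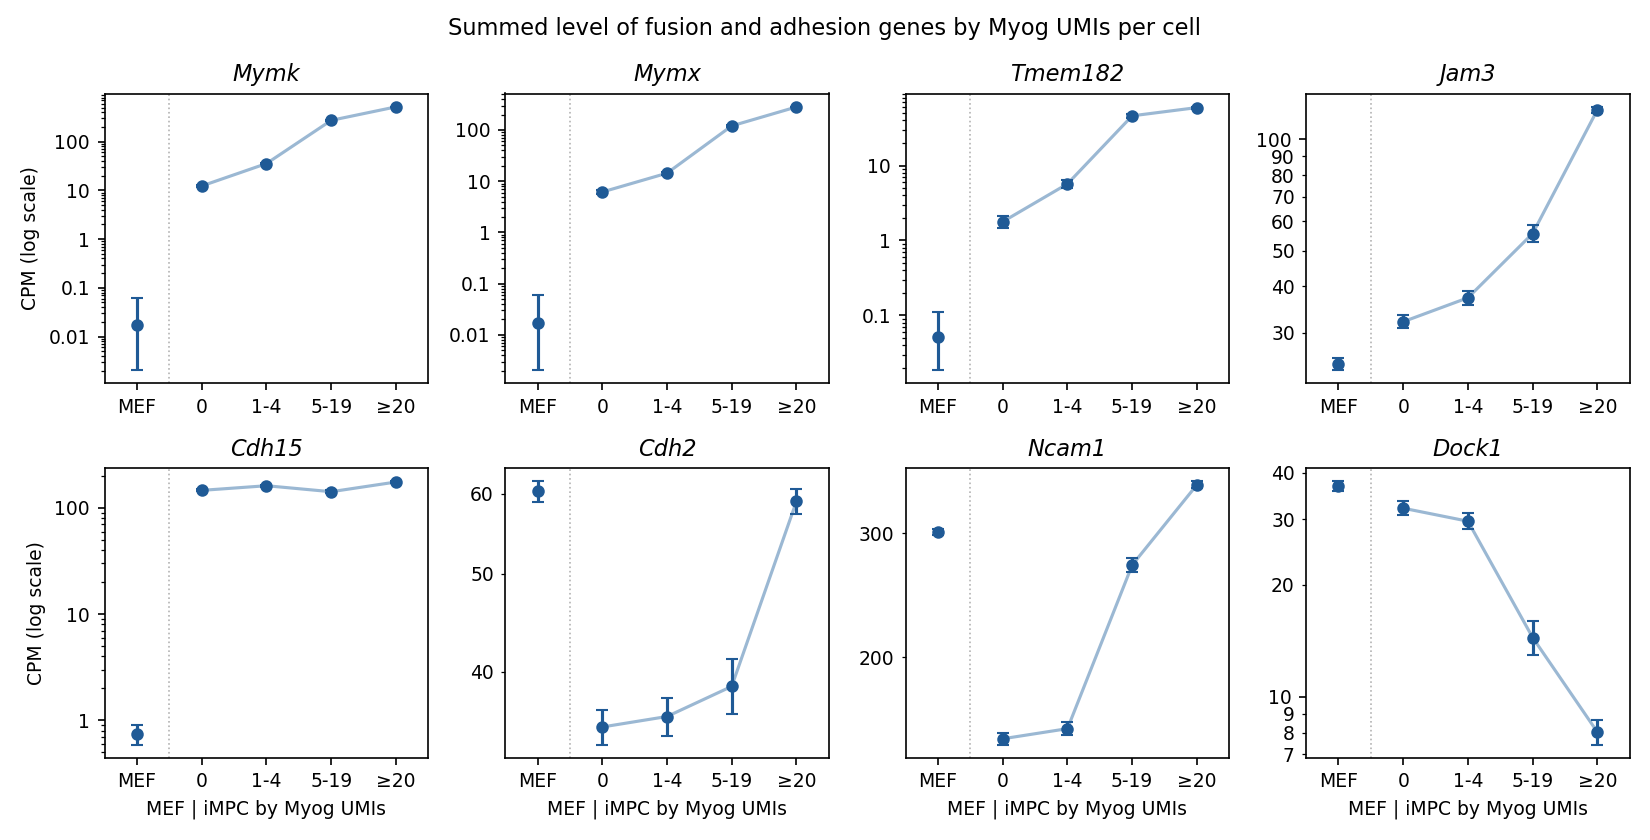
Summed level in CPM (log axis, a separate scale for each gene) in MEF cells and in iMPC cells with 0, 1 to 4, 5 to 19 and at least 20 Myog UMIs, with exact 95% Poisson intervals. Mymk, Mymx and Tmem182 are near 0 in MEF and climb with Myog to 517, 282 and 59.3 CPM, Cdh15 stays between 142 and 176 CPM in all iMPC bins, and Dock1 is lowest, at 8.03 CPM, in the last bin.

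The second comparison placed the genes along Myog within the iMPC culture. Between cells with at least 20 Myog UMIs and cells with 0, the genes Mymx, Mymk, Tmem182, Jam3 and Ncam1 were higher (5 of 8) and Dock1 was lower (1 of 8). Among 8077 genes, 10.3% were higher and 21.1% lower. The median log2 ratio of the 8 genes was 1.55, beside -0.29 over all genes compared. Cells with at least 20 Myog UMIs held 81.2% of the iMPC culture's Mymk UMIs, 84.4% of its Mymx UMIs and 75.1% of its Tmem182 UMIs, beside 35.3% of all UMIs. Under median-ratio scaling Cdh2 also passed 2-fold, and 6 genes were higher.

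Of the fusion genes, Mymk stood at 12.3 CPM in Myog 0 cells (11.5 to 13.2), 35.5 CPM at 1 to 4 Myog UMIs (34.0 to 37.1), 273 CPM at 5 to 19 (267 to 280) and 517 CPM at 20 or more (512 to 522). None of these intervals overlap, and the log2 ratio of the last bin over the first was 5.39 (5.29 to 5.49). Mymx went in the same order, with 6.16, 14.3, 120 and 282 CPM, and its log2 ratio of last over first was 5.52 (5.38 to 5.66). With Myog counted after thinning to 8000 UMIs these ratios were 4.70 for Mymk and 4.82 for Mymx, and with free RNA of the 200 to 600 UMI barcodes subtracted they were 5.98 and 7.22. The largest step of both lay between 1 to 4 and 5 to 19 Myog UMIs, with log2 ratios of 2.95 for Mymk and 3.07 for Mymx. Between 5 to 19 and at least 20 Myog UMIs the log2 ratios were 0.92 for Mymk (0.88 to 0.96) and 1.23 for Mymx (1.17 to 1.28). The share of cells with a Mymk UMI was 5.0%, 8.68%, 51.4% and 83.7% in the 4 bins after thinning, and 15.1%, 22.4%, 75.9% and 97.5% without thinning. Mymx was found in 3.33%, 5.52%, 30.9% and 60.8% of cells after thinning, and in 10.0%, 16.4%, 58.7% and 90.7% without. In MEF a Mymk UMI was found in 0.0174% of thinned cells and a Mymx UMI in none, which allows a share of up to 0.0521% by a floor of 3 cells and 0.0640% by the exact upper limit.

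Low values of the fusion genes in Myog 0 cells were read beside free RNA, which droplets take up from the medium. Barcodes of 1 to 100 UMIs in the iMPC matrix, too few for a cell, held Mymk at 222 CPM and Mymx at 145 CPM, and barcodes of 200 to 600 UMIs held them at 210 and 215 CPM. If free RNA made up 2% of a cell's UMIs, a thinned cell would show Mymk in 2.07% to 2.19% of cases and Mymx in 1.44% to 2.12%. The observed shares in the 113 Myog 0 cells with at least 20 UMIs of the fibroblast gene Dcn and 0 of Pax7 (median depth 17900) were 3.54% (0.973% to 8.82%) for Mymk and 2.65% (0.551% to 7.56%) for Mymx. Those of all Myog 0 cells, 5.0% (4.31% to 5.76%) and 3.33% (2.77% to 3.97%), lie inside these intervals. The intervals are wide, from 4 and 3 cells with a UMI, and the 113 cells are part of the Myog 0 bin, so this comparison of shares cannot separate the 2. By level, Mymk stood at 5.49 CPM (2.84 to 9.59) in the 113 cells, below its 12.3 CPM (11.5 to 13.2) in all Myog 0 cells. Mymx stood at 5.94 CPM (3.17 to 10.2) and 6.16 CPM (5.58 to 6.77), which overlap. The shares of all Myog 0 cells lie above those expected at 2% free RNA. The true share of free RNA was not measured, and the part of expression in most Myog 0 cells was not tested. The same 2 sets of barcodes held Myog at 434 and 575 CPM and Ckm at 86.4 and 181 CPM. At 2% free RNA, a cell of the median depth of Myog 0 cells would take up 0.153 to 0.203 Myog UMIs. For Ckm it would take up 0.0305 to 0.0641. The part of free RNA in the bins of 1 to 4 Myog or Ckm UMIs was not tested. Among the 3600 Myog 0 cells, 15 had at least 5 Mymk UMIs, and cells picked in this way held 26.8% of the Mymk UMIs of that bin. Their median depth was 28708 UMIs, against 17654.5 in the whole bin, and doublets were kept. Of these 15 cells, 11 had a Ckm UMI and 9 a Mymx UMI, and they included all 7 of the Myog 0 cells with at least 5 Ckm UMIs.

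Detection of RNA of both fusion genes in the same cell was then counted. After thinning, 1453 of 9349 iMPC cells (15.5%, 14.8% to 16.3%) had UMIs of both Mymk and Mymx, 1284 had only Mymk and 447 only Mymx. In MEF, 0 of 5759 cells had both. The share with both was 0.528% in Myog 0 cells, 1.79% at 1 to 4 Myog UMIs, 21.3% at 5 to 19 and 53.6% at 20 or more. Without thinning it was 2.39%, 5.90%, 49.7% and 89.0%, so the share depended on the depth at which cells were read. Of thinned cells with Mymk, 53.1% (51.2% to 55.0%) also had Mymx, and of cells without Mymk 6.76% (6.17% to 7.39%) had it. Mymk was found in 76.5% of cells with Mymx (74.5% to 78.4%). Of the 1037 thinned cells with at least 5 Ckm UMIs, 532 had both, 380 only Mymk and 59 only Mymx. Without thinning, at a median depth of 42148 UMIs, 925 had both, 111 only Mymk and 0 only Mymx. Had Mymk and Mymx been detected independently, 520 of these thinned Ckm cells would have both, and 556 of all thinned iMPC cells. The value of 556 pools Myog bins that differ in the shares of both genes. Within the 4 Myog bins, independence would give 6, 12.6, 140 and 1141 thinned cells with both, and 19, 47, 188 and 1199 were counted.

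**Figure D2:**
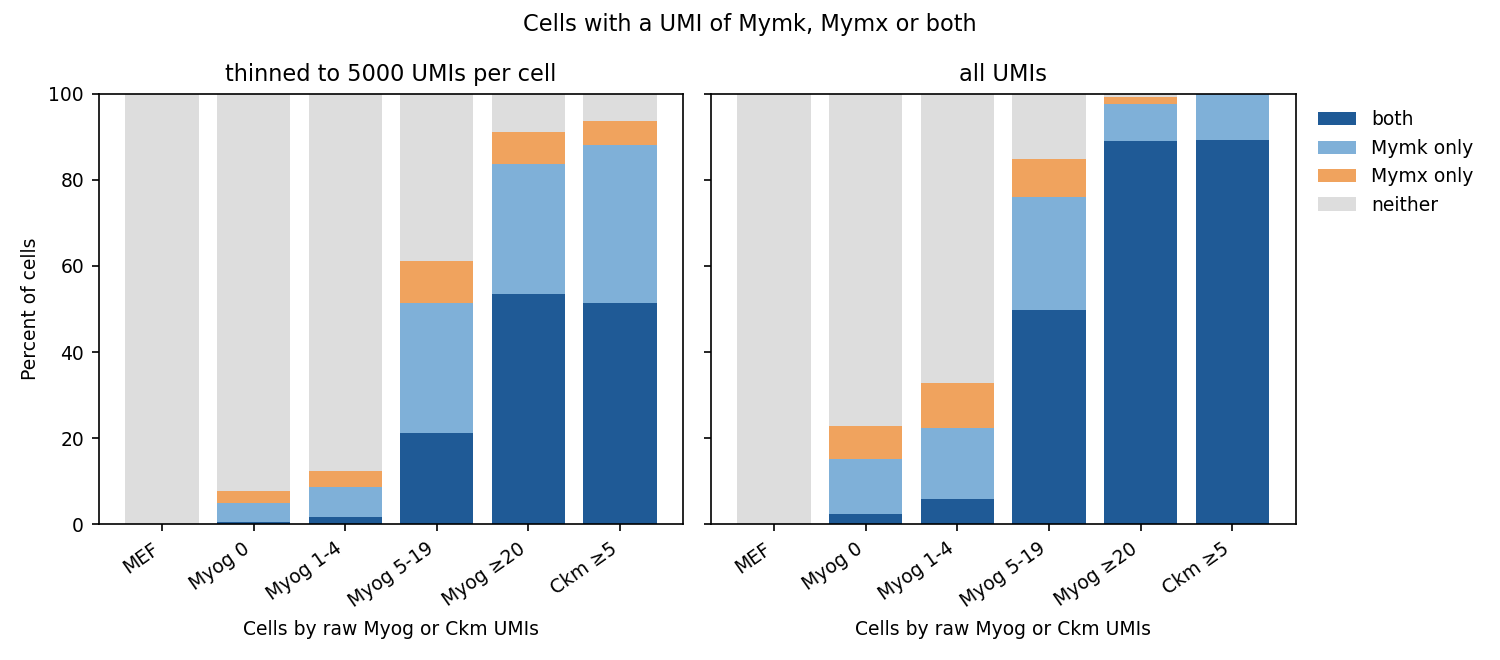
Share of cells (percent) with UMIs of both Mymk and Mymx, of Mymk only, of Mymx only and of neither, stacked to the whole group, in MEF, in the iMPC bins of Myog and in iMPC cells with at least 5 Ckm UMIs; the left panel thins each cell to 5000 UMIs and the right panel uses all UMIs. No MEF cell had both, and in the left panel the share with both goes from 0.528% in Myog 0 cells to 53.6% in cells with at least 20 Myog UMIs.

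Within a Myog bin, cells with more Mymk UMIs had Mymx more often. Among thinned cells with at least 20 Myog UMIs, Mymx was found in 44.8% of cells with 0 Mymk UMIs (39.6% to 50.1%), 54.9% with 1, 65.3% with 2 to 4 (62.3% to 68.2%) and 70.2% with 5 or more (65.5% to 74.6%). Intervals of neighbouring sets overlap at 0 and 1 Mymk UMIs and at 2 to 4 and 5 or more, while those of the first and the last set do not. At 5 to 19 Myog UMIs the same shares were 19.8%, 28.7%, 49.3% and 55.1%. At 1 to 4 Myog UMIs they were 4.09% with 0 Mymk UMIs, 12.0% with 1 and 40.4% with 2 to 4, the last from 57 cells. In Myog 0 cells they were 2.95% with 0 and 8.64% with 1. The order was thus the same in every bin, and bins of raw Myog still span a range of Myog, whose part in this was not tested. The summed Mymk UMIs were 2.0, 2.48, 2.27 and 1.83 times the Mymx UMIs in the 4 Myog bins, and 0.976 times in iMPC barcodes of 200 to 600 UMIs.

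**Figure D3:**
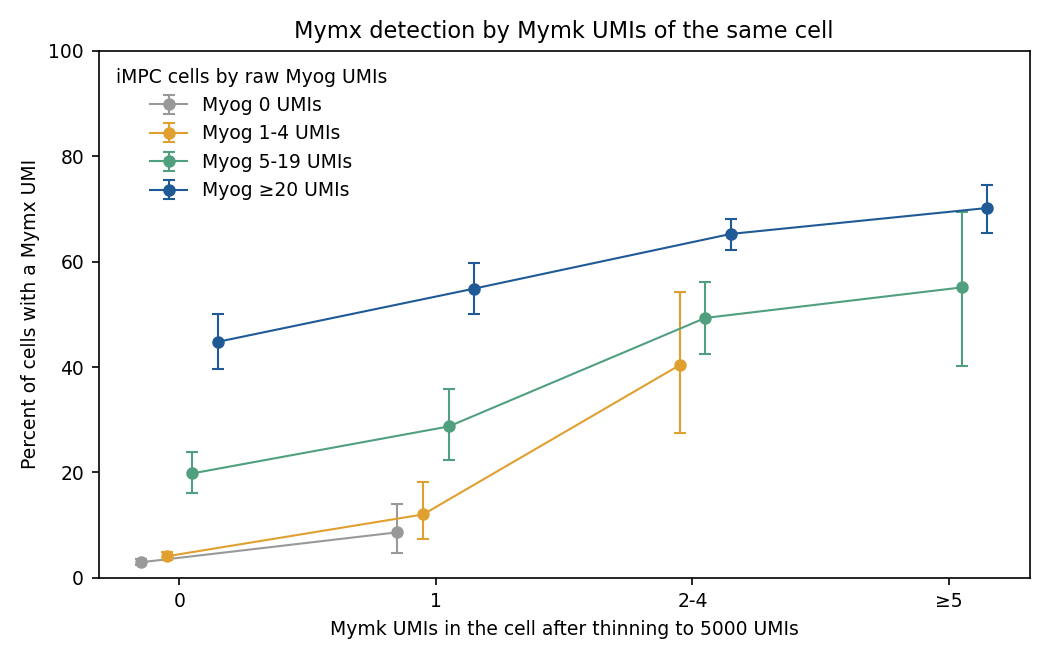
Share of cells (percent, exact 95% binomial intervals) with a Mymx UMI, by the number of Mymk UMIs in the same cell (0, 1, 2 to 4, at least 5) and by Myog bin, each cell thinned to 5000 UMIs. Within each bin the share is higher with more Mymk, and it ranges from 2.95% in Myog 0 cells without Mymk to 70.2% in cells with at least 20 Myog and 5 Mymk UMIs; points of under 20 cells are not drawn.

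Tmem182 was nearly absent from Myog 0 cells, at 1.78 CPM (1.48 to 2.12), and stood at 5.69, 46.1 and 59.3 CPM in the following bins. Its log2 ratio of last over first was 5.06 (4.8 to 5.33), 3.30 with Myog counted after thinning to 8000 UMIs, and 5.79 with free RNA of the 200 to 600 UMI barcodes subtracted. Most of that lay between 1 to 4 and 5 to 19 Myog UMIs, where the log2 ratio was 3.02 (2.84 to 3.2), and only 0.37 (0.27 to 0.46) between the last 2 bins. A Tmem182 UMI was found in 0.750%, 1.71%, 16.5% and 20.1% of thinned cells.

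Jam3 was present in every bin and took its largest step last. It stood at 32.1 CPM in Myog 0 cells (30.8 to 33.5), 37.3 CPM at 1 to 4 Myog UMIs (35.7 to 38.9), 55.6 CPM at 5 to 19 (52.8 to 58.6) and 120 CPM at 20 or more (118 to 123). Its intervals do not overlap, and the log2 ratio between the last 2 bins was 1.11 (1.03 to 1.19). Between the outer bins it was 1.90 (1.84 to 1.97), and 2.76 with Myog counted after thinning to 8000 UMIs. Mymx and Jam3 were higher across that step by totals, 2 of 8 genes, beside 1.07% of all genes higher and 1.43% lower. Mymk (0.92 by totals) was at 1.05 under median-ratio scaling and then passed as well. Across the first step, from 0 to 1 to 4 Myog UMIs, Mymk (1.53) and Mymx (1.22) were higher among the 7 genes with at least 10 CPM, beside 1.2% of all genes higher and 0.013% lower. In cells with 0 Ckm UMIs this step was smaller, with Mymk at 9.84 and then 12.4 CPM and Mymx at 5.86 and then 8.41 CPM. The 63 cells with 1 to 4 Myog and at least 5 Ckm UMIs held 926 of the 2013 Mymk UMIs of their Myog bin. Across the middle step Mymk, Mymx and Tmem182 were higher and Dock1 (-1.04) lower, beside 7.2% higher and 10.2% lower. Median-ratio scaling adds 0.25 to the log2 ratios of this step, under which Dock1 (-0.79) no longer passed and Ncam1 (1.02) did.

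Cdh15 differed little between Myog bins, and Cdh2 was higher in the last bin than in the others. Cdh15 stood at 146 CPM (144 to 149), 162 CPM (159 to 165), 142 CPM (138 to 147) and 176 CPM (173 to 178) in the 4 bins. Its levels at 0 and at 5 to 19 Myog UMIs overlap within counting error, and its log2 ratio of last over first was 0.26 (0.22 to 0.30). From 1 to 4 up to 5 to 19 Myog UMIs its log2 ratio was -0.19 by totals and 0.07 under median-ratio scaling, so that direction flips with the scaling. A Cdh15 UMI was found in 44.1% of thinned Myog 0 cells and 53.4% of cells with at least 20 Myog UMIs, against 0.521% of MEF cells. Cdh2 stood at 35.3, 36.1 and 38.7 CPM in the first 3 bins, whose neighbouring intervals overlap, and at 59.0 CPM in the last (57.3 to 60.7), which overlaps the MEF level of 60.3 CPM (58.9 to 61.8). The Cdh2 log2 ratio of last over first was 0.74 (0.67 to 0.81) by totals, within 2-fold, and 1.14 under median-ratio scaling.

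Myog 0 cells were themselves divided by Pax7, the transcription factor of satellite cells, and by Dcn. In 716 cells with at least 3 Pax7 UMIs and under 5 Dcn UMIs, Cdh15 stood at 205 CPM (198 to 212), and in the 113 cells with at least 20 Dcn and 0 Pax7 UMIs at 10.5 CPM (6.67 to 15.8). The log2 ratio was 4.28 (3.70 to 4.94). Cdh15 was the only gene higher among the 5 with at least 10 CPM in either set, and 0 were lower, beside 16.2% of all genes higher and 16.5% lower. Cdh2 (log2 ratio 0.04, -0.33 to 0.43) and Dock1 (-0.15, -0.47 to 0.20) had intervals that include 0. Ncam1 (0.58, 0.37 to 0.79) and Jam3 (0.45, 0.05 to 0.87) had intervals above 0 but stayed within 2-fold.

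Ncam1 and Dock1 went in opposite directions along Myog. Ncam1 stood at 153 CPM (151 to 156) and 159 CPM (155 to 162) in the first 2 bins, which overlap, then at 270 CPM (264 to 277) and 351 CPM (347 to 355). The MEF level of 301 CPM (298 to 304) lies between the last 2 bins. The log2 ratio of Ncam1 between last and first bin was 1.19 (1.16 to 1.23). Dock1 stood at 32.1 CPM (30.8 to 33.5) and 29.6 CPM (28.2 to 31.1) in the first 2 bins, then at 14.4 CPM (13.0 to 16.0) and 8.03 CPM (7.43 to 8.67). Its log2 ratio was -2.00 (-2.13 to -1.87), and Myog 0 cells held 44.9% of its iMPC UMIs beside 29.5% of all UMIs. Fibroblast markers were also lower in the last bin, as given above, and their part in the Dock1 difference was not tested. In the 716 Pax7 cells Dock1 stood at 36.0 CPM and in the 113 Dcn cells at 39.8 CPM.

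The third comparison used Ckm, a later marker. In cells with at least 5 Ckm UMIs, Tmem182, Mymk and Mymx were higher than in the other cells (3 of 8) and Dock1 was lower (1 of 8), beside 9.19% of all genes higher and 24.1% lower. Tmem182 stood at 79.3 CPM (76.8 to 81.8) against 14.3 CPM (13.7 to 14.8), a log2 ratio of 2.47 (2.40 to 2.55). Mymk stood at 541 against 141 CPM (log2 ratio 1.94, 1.92 to 1.97) and Mymx at 258 against 80.5 CPM (1.68, 1.65 to 1.72). With Ckm counted after thinning to 8000 UMIs, Mymx was at 0.92 and no longer passed 2-fold, Mymk was at 1.29 and Tmem182 at 1.56, which left 2 genes higher. Ncam1 stood at 384 against 198 CPM (0.95) and Cdh2 at 63.2 against 39.2 CPM (0.69), both within 2-fold. Under median-ratio scaling these were 1.36 and 1.09, and both then counted as higher. Dock1 stood at 4.15 CPM (3.60 to 4.77) against 25.6 CPM (24.8 to 26.3), a log2 ratio of -2.62 (-2.83 to -2.42). Cdh15 was at 160 CPM on both sides, with a log2 ratio of 0.00 by totals that ran from -0.15 to 0.41 over 9 alternatives. Jam3 stood at 58.3 against 69.3 CPM, a log2 ratio of -0.25 by totals and 0.16 under median-ratio scaling, so its direction flips. It also flipped, to 0.05, when CPM was computed cell by cell and then averaged.

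Because most Ckm cells also had Myog, the genes were read by Ckm within a Myog bin. Among cells with at least 20 Myog UMIs, 824 had 0 Ckm UMIs, 690 had 1 to 4 and 725 had 5 or more. Jam3 stood at 173 CPM (167 to 178), 145 CPM (140 to 150) and 71.2 CPM (68.5 to 74.1) in these 3 sets. Its log2 ratio of the last set over the first was -1.28 (-1.35 to -1.21), and -1.02 under median-ratio scaling. Tmem182 went the other way, from 27.1 to 57.0 to 80.8 CPM, a log2 ratio of 1.58 (1.45 to 1.71). Dock1 went from 15.3 to 7.33 to 3.97 CPM (-1.95, -2.24 to -1.67). These made 1 gene higher and 2 lower, beside 7.11% of all genes higher and 12.6% lower. Cdh2 was at 0.92 by totals and 1.17 under median-ratio scaling, which made 2 genes higher. Mymk stood at 374, 546 and 586 CPM, with intervals that do not overlap, and its larger step lay between 0 and 1 to 4 Ckm UMIs. Mymx stood at 229, 311 and 295 CPM, with its highest level in the middle set. Cdh15 stood at 169, 177 and 179 CPM, Cdh2 at 38.5, 57.4 and 72.7 CPM, and Ncam1 at 272, 357 and 397 CPM.

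The same reading at 5 to 19 Myog UMIs gave the same directions for the genes past 2-fold. Jam3 stood at 85.3 CPM with 0 Ckm UMIs, 57.7 CPM with 1 to 4 and 23.1 CPM with 5 or more, a log2 ratio of -1.89 (-2.10 to -1.68). Tmem182 (2.51), Mymk (1.86) and Mymx (1.42) were higher and Dock1 (-2.31) lower, so 3 genes were higher and 2 lower, beside 11.2% of all genes higher and 26.9% lower. Ncam1 was at 0.94 by totals and 1.32 under median-ratio scaling, which made 4 genes higher. Cdh15 stood at 174, 138 and 111 CPM in these sets. Its log2 ratio was -0.65 (-0.76 to -0.54) by totals and -0.27 under median-ratio scaling. In the highest Myog bin the Cdh15 ratio was 0.08 by totals and 0.34 under that scaling, and the difference between the bins was not tested. Cells with Ckm but little Myog were few: 63 cells with 1 to 4 Myog and at least 5 Ckm UMIs held Mymk at 373 CPM (349 to 397), Tmem182 at 68.8 CPM (58.9 to 79.9) Jam3 at 15.3 CPM (10.8 to 21.0) and Cdh15 at 99 CPM (87.0 to 112). Jam3 was thus highest in cells with high Myog and no Ckm, while Tmem182 was highest in cells with at least 5 Ckm UMIs. There Tmem182 stood at 76.9 CPM (71.5 to 82.6) with 5 to 19 Myog UMIs and 80.8 CPM (77.9 to 83.8) with 20 or more, and these intervals overlap. The depth of the cells went with Ckm as well, with medians of 24141.5, 30044 and 43538 UMIs across the 3 sets of the highest Myog bin, and its part was not tested.

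**Figure D4:**
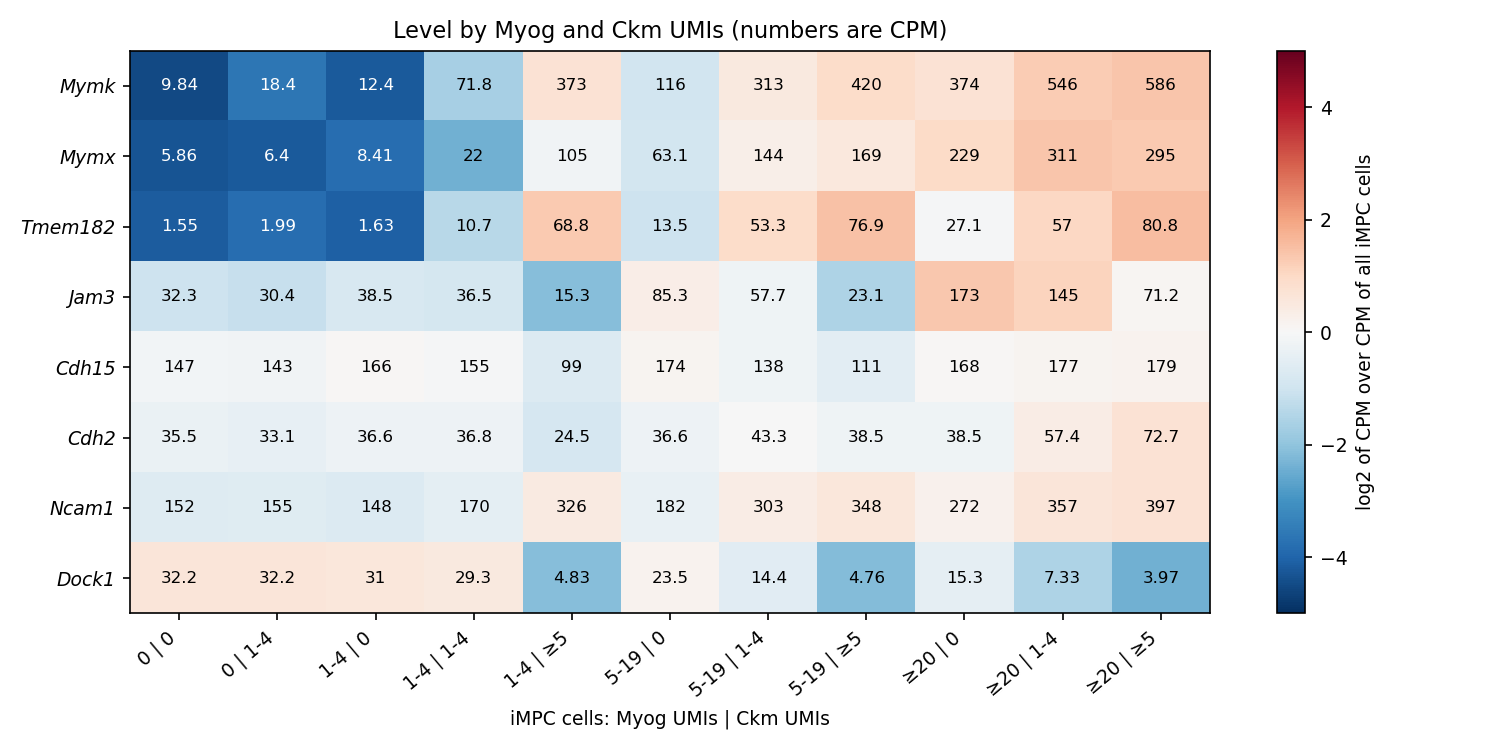
Level of each gene in iMPC cells split by Myog bin and by Ckm UMIs (0, 1 to 4, at least 5), for the 11 combinations of at least 50 cells; the printed numbers are CPM and the colour is the log2 of that level over the gene's level in all iMPC cells. Jam3 has its highest level, 173 CPM, in cells with at least 20 Myog and 0 Ckm UMIs, whereas Tmem182 has its highest, 80.8 CPM, in cells with at least 20 Myog and 5 Ckm UMIs. With 5 to 19 Myog and at least 5 Ckm UMIs Tmem182 stands at 76.9 CPM, with overlapping intervals.

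For each gene, the 3 genes with the most similar levels were found by Pearson's r of log2(CPM + 1) over 12 groups (MEF and the 11 combinations of Myog and Ckm), among 3940 genes that reach 50 CPM. These groups share a library, apart from MEF, and the correlations are descriptions with no test. Mymk was most like Smyd1, Synpo2l (0.994) and Hspb2 (0.994), and Mymx most like Hes6 (0.998), Trim55 (0.995) and Shisa2 (0.994). Genes among the most like Tmem182 were Trim63 (0.998) and Fn3k (0.997). Jam3 was most like Cacybp (0.988), Psmg3 (0.981) and Hspe1 (0.969), and Cdh15 most like Itm2a (0.998), Bves (0.989) and Igfbp2 (0.987). For Cdh2 they were Dnajc3 (0.967), Manf (0.929) and Adam19 (0.920), for Ncam1 2310022B05Rik (0.990), Psmc5 (0.981) and Npepl1 (0.981), and for Dock1 Sh3bgrl (0.994), Phf3 (0.994) and Pofut2 (0.993). Among the 8 genes themselves, Mymk and Mymx had an r of 0.987, Mymk and Tmem182 of 0.968, and Tmem182 and Dock1 of -0.899.

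Other genes of adhesion and fusion were read from 4 lists drawn from general knowledge. Their counts stand beside the shares of all genes: 14.8% higher and 21.5% lower in iMPC against MEF, 10.3% and 21.1% along Myog, and 9.19% and 24.1% by Ckm. The Rac and actin list holds partners of Dock1, and 15 of its 16 genes were measured. In iMPC against MEF, 0 of its 13 genes with at least 10 CPM were higher and 5 lower, led by Dock5 (-1.89), Elmo2 (-1.60) and Trio (-1.33). Its median log2 ratio was -0.93, beside -0.17 over all genes. Along Myog, 1 of 12 was higher, the exchange factor Trio (1.09), and 2 lower, Wipf1 (-2.26) and Elmo2 (-1.56). By Ckm, 0 of 11 were higher and Wipf1 (-2.56) alone was lower.

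Among adhesion receptors and catenins, 3 of 17 genes were higher in iMPC than in MEF, near the 14.8% of all genes, and 8 lower, beside 21.5%. Those higher were the laminin-binding integrin Itga7 (3.67), Cdon (3.05), a receptor that binds cadherins, and Jam2 (2.30), a binding partner of Jam3. The lowest were Cdh4 (-10.21), Cdh11 (-3.00) and Vcam1 (-2.87). Along Myog, 1 of 16 was higher, Itga4 (1.93), the integrin chain that binds Vcam1, and 5 lower, led by Kirrel (-3.06), Cdh11 (-3.02) and Vcam1 (-2.84). By Ckm, 1 of 16 was higher, Itga4 (1.16), and 6 lower, led by Cdh11 (-3.13), Kirrel (-3.11) and Vcam1 (-3.07).

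The ferlin and membrane repair list had 1 of 7 genes higher in iMPC than in MEF, near the 14.8% of all genes, and 3 lower, beside 21.5%. Cav3, the caveolin of muscle, had a log2 ratio of 12.37, from 4 UMIs in MEF, and Anxa1 (-1.90), Ehd2 (-1.82) and Anxa5 (-1.5) were lower. Along Myog, 3 of 8 were higher, Cav3 (5.39), Trim72 (4.69) and the ferlin Dysf (2.69), and 3 lower, Ehd2 (-2.35), Anxa1 (-2.21) and Anxa5 (-2.19). By Ckm the same 6 genes were higher and lower, 3 each. None of the 4 phosphatidylserine receptor genes reached 10 CPM in any of these 3 comparisons.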

How the data were processed

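Both deposited files are sparse tables of whole-number UMI counts, one value for a gene in a barcode, and their headers name Cell Ranger. They record no normalisation by the authors. Per the submitters' processing notes, Cell Ranger 4.0, Seurat 3.2.3 and GRCm38.p6 were used. The iMPC matrix lists 6794880 barcodes (282903287 UMIs) and the MEF matrix 6113 (118541302 UMIs), whose selection is not given in the sources used here. A further 24 genes, in MEF alone, were left out (0.209% of UMIs there). GENCODE M21 held 25989 of the 26100 common identifiers.

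iMPC barcodes with at least 8036 UMIs, 10% of the 99th percentile of the top 10000, were called cells. Cells with over 20% mitochondrial UMIs were removed, 191 of 9540 in iMPC and 70 in MEF. Doublets were kept. In an alternative Scrublet removed 418 iMPC cells (4.47%); in MEF its threshold marked 1 cell, so the 292 highest scores (4.83%) were removed.

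UMIs were summed by group and divided by the group total (CPM). Thinning drew UMIs without replacement. A ratio was counted at 2-fold where the larger level was at least 10 CPM. The 8 genes and all lists (49 of 50 pathway genes, as Arhgap26 was not analysed here, and the myogenic stage, fibroblast, smooth muscle, neuron, glial, endothelial, immune, epithelial and cycling markers) were chosen with earlier results of these data known. Of each list at most 3 genes per direction with the largest ratio are named. Of the genes found most similar in level, 1 is not reported here. Alternatives covered scaling, doublets, mitochondrial share, fold, the 10 CPM filter, free RNA, the UMI threshold and thinning. The ratio script was tested on simulated data. Software was scanpy 1.11.5, scipy 1.17.1, numpy 2.4.6, matplotlib 3.10.9, pandas 2.3.3 and Python 3.11.15.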

Additional observations from a re-analysis of the deposited data

Results flagged for a closer look

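iMPC barcodes that are too small to be cells, which enter none of the comparisons, held the fusion genes well above what a count of 0 allows. Barcodes of 1 to 100 UMIs held Mymk at 222 CPM and Mymx at 145 CPM, where 3 counts are 0.342 CPM. Barcodes of 200 to 600 UMIs held Mymk at 210 CPM and Mymx at 215 CPM, where 3 counts are 0.141 CPM. In the cells of the same library Mymk stood at 224 CPM and Mymx at 118 CPM. The Mymk to Mymx ratio was 1.53 (1.42 to 1.64) in the smaller barcodes, 0.976 (0.936 to 1.02) in the larger ones and 1.91 (1.88 to 1.93) in cells.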

How the results depend on the processing

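No paired analysis was possible because each culture was 1 library and no numbered replicates exist, and for the same reason no replicate could be left out. Of 80 recomputed counts and shares, 70 stayed close to the values given. At a fold of 1.5, 1 gene was lower in iMPC than in MEF and 5 genes were higher by Ckm. At a fold of 4, 3 genes were higher and 0 lower along Myog, and 1 was higher by Ckm. Under median-ratio scaling, 5 genes were higher by Ckm. The share of iMPC cells with both Mymk and Mymx was 6.85% at 2000 UMIs per cell, 19.9% at 8000, 28.6% with no thinning and 7.68% with at least 2 UMIs of each gene. It was 15.3% with a threshold of 5000 UMIs for cells. The choice of depth and the minimum of UMIs thus set this share. Of the further recomputed values, which were log2 ratios of the 8 genes and counts of list genes, 385 stayed close and 119 moved further. Close means within counting error for a ratio and within 1.5-fold for a count. Of the ratios, 0 changed sign where the main value was at least 2-fold. By Ckm, the ratios of Mymk and Mymx each moved past counting error in 8 of 9 alternatives, and those of iMPC to MEF in 0. The iMPC to MEF intervals are wide, from 2 UMIs in MEF, so this count of 0 cannot show that those ratios are stable. The iMPC to MEF log2 ratio ran from 13.59 to 14.59 for Mymk and from 12.02 to 13.68 for Mymx. The log2 ratio of Tmem182 along Myog ranged from 3.30 (Myog counted after thinning to 8000 UMIs) to 5.79 (free RNA of 200 to 600 UMI barcodes subtracted), and that of Mymx from 4.82 to 7.22 under the same alternatives. By Ckm, the Mymx ratio was 0.92 with Ckm counted after thinning. The cause was not tested. Fewer than 3 UMIs of Mymk and Mymx in MEF limit the iMPC to MEF ratios of both.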
